A study of Mus musculus with 8 samples.

Results

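Gm28510, Tslrn1, Taco1os, Particl and Snord42b are 5 little-studied transcripts whose level in mouse testis was higher with valine. They were selected on their FPKM in these samples, for the rise with valine, out of 55414 genes in the table. The values that chose them are therefore given as a description with no test. RNA came from the testis of male mice, 4 samples with the essential amino acid valine as the treatment and 4 control samples. The sources used here give no strain, age, dose, route or duration, and do not say that each sample was a separate animal. The p-values below thus reflect only how far these samples spread, and that spread may be technical. Expression is in FPKM, a gene's fragments divided by its length and by the library's mapped fragments.

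The members stand for different kinds of gene. A long intergenic noncoding RNA, such as Tslrn1, is transcribed away from coding genes. An antisense or opposite-strand transcript, such as Taco1os or Particl, runs against a coding gene and overlaps it. A small nucleolar RNA (snoRNA) of the box C/D kind, such as Snord42b, is cut from an intron of a host gene and guides 2'-O-methylation of ribosomal RNA by the methyltransferase fibrillarin. The testis transcribes an unusually wide range of noncoding and lineage-specific genes, and the Y chromosome carries multicopy families that are active in spermatids.

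The label of noncoding did not hold for Gm28510. The GENCODE annotation vM21 lists it as a protein coding gene of the Y chromosome, with 928 exonic bases and a coding stretch from base 59 to base 778 of its transcript. The other members were annotated as lincRNA (Tslrn1, X chromosome, 778 bases), antisense (Taco1os, chromosome 11, 644 bases), TEC, a class of models awaiting experimental support (Particl, chromosome 6, 1560 bases) and snoRNA (Snord42b, chromosome 11, 69 bases).

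The transcript of Gm28510 aligned over at least 80% of its length, at 90% identity or more, to 85 other genes, all on the Y chromosome. One of them was Sly, which was 97.2% identical. Sly encodes a spermatid protein known to restrain transcription of the sex chromosomes after meiosis, and is the Y-linked counterpart of the X-linked Slx and Slxl1. The closest copy was Gm20850, at 97.63%. The coding window from base 227 to base 286 of the transcript is shown with the 4 bases that differ between Gm28510 and Gm20850 in capitals (GENCODE vM21). It was the window of 60 coding bases with most differences between these genes, and the other copies were not compared there.
Gm28510: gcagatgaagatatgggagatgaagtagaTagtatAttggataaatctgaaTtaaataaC
Gm20850: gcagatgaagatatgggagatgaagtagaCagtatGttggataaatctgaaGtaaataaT
Over the Gm28510 transcript, 39.4% of its 50-base windows (346 of 879) occurred in no other gene's transcripts, and 75.3% of its 100-base windows. The sources used here give neither the read length nor the treatment of reads with several matches, so a part of the fragments of any copy could have been assigned to another.

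Snord42b and Snord42a are both encoded within Rpl23a, which makes a protein of the large ribosomal subunit. Their sequences are shown because they share the run of 18 bases printed in capitals while only Snord42b gave fragments. The run holds the CTGA of box D near the 3' end, at base 61 of Snord42b and base 57 of Snord42a, and both carry TGATG, the core of box C, at base 8.
Snord42b: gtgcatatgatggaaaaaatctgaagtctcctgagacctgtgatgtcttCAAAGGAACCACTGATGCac
Snord42a: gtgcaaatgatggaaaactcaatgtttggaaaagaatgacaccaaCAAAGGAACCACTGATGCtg
Every 50-base window of Snord42b and of Tslrn1 was found in no other gene's annotated transcripts, against 67.1% of those of Taco1os and 69.6% of those of Particl. Unspliced gene sequence was not searched, and Snord42b lies within Rpl23a on the same strand.

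The 2 opposite-strand members meet the promoters of their partner genes, which are shown for that reason (RefSeq, GRCm38.p6, the 250 bases before the start). The stretch before Taco1, chr11:106065841-106066090 on the plus strand, has in capitals the 99 bases that also lie in the promoter window of Taco1os on the minus strand. The promoter window of Mat2a lies wholly inside the Particl transcript, which runs the other way. Its upstream stretch is chr6:72439557-72439806 on the minus strand, with a TATA box (TATAAA) in capitals.
Taco1: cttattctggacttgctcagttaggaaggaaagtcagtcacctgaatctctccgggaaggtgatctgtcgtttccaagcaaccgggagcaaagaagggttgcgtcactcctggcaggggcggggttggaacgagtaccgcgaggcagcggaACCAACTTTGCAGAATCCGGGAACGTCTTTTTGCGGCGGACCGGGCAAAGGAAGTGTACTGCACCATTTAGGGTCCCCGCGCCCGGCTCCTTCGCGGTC
Mat2a: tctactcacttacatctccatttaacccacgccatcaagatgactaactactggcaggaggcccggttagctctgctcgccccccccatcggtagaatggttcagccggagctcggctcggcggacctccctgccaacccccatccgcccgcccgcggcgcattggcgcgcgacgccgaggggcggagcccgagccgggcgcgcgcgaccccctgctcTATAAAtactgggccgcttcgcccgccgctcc
Promoter windows were found for 3 of the 5 members, namely Tslrn1, Taco1os and Particl. On either strand none of them held the cyclic AMP response element TGACGTCA, TATAAA or the MYB motif AACNGTT, which occurred in 1.79%, 13.6% and 4.45% of 32851 promoter windows. These windows lie at RefSeq starts, which need not be the starts of the GENCODE models. By their RefSeq starts Taco1os and Taco1 run apart, while their GENCODE exons share 245 bases. The window of Taco1os held 23 CG dinucleotides and that of Mat2a 34, more than 78.5% and 92.3% of all windows, while that of Particl and the first of Tslrn1 held 7, the median.

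The FPKM values could be turned back into whole fragments. Low values of single-exon genes, up to 10 fragments, were multiplied by the GENCODE exon length. Of these, 99.4% to 99.6% in a sample came within 0.05 of a whole number of fragments. The size of a single fragment was fitted on the same values, and gave 6640000 to 7680000 fragments per library. All 8 values of each member were whole in this way, which gives the counts behind them. Intervals from these counts cover counting error only, and fragments without molecular identifiers are not independent molecules. Summed over genes, FPKM ran from 944659 to 974626 in the controls and from 1027662 to 1070524 with valine.

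Gm28510 was at 1.54, 2.42, 3.19 and 2.58 FPKM in control replicates 1 to 4. It was at 32.1, 28.1, 20.4 and 31.2 FPKM in valine replicates 1 to 4. Even the lowest valine sample, replicate 3, lay far above every control sample. The group means were 2.43 ± 0.680 and 28.0 ± 5.33 FPKM (SD, n = 4), an 11.5-fold difference that rested on 64 control and 742 valine fragments. On the scale of log2(FPKM + 1) the difference was 3.08, rank 1 of the 22077 genes whose mean reached 1 FPKM.

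Tslrn1, named as a testis-specific long noncoding RNA, was the most abundant member in both groups. Its level was 17.6, 23.1, 22.5 and 20.9 FPKM in the control replicates and 33.1, 33.3, 39.9 and 36.9 FPKM in the valine replicates. The groups did not overlap, and the values within each lay close together. The means were 21.0 ± 2.46 and 35.8 ± 3.23 FPKM (SD, n = 4), a 1.70-fold difference from 465 and 804 fragments. The log2 difference of 0.74 ranked 332.

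Taco1os was the member of lowest level in the valine group. It stood at 2.23, 1.63, 0.920 and 1.86 FPKM in the control replicates and at 4.67, 4.13, 2.65 and 5.47 FPKM in the valine replicates. Replicate 3 was the lowest of its group in both, and valine replicate 3 lay just above the highest control sample. The means of 1.66 ± 0.551 and 4.23 ± 1.19 FPKM (SD, n = 4) differed 2.55-fold. Only 31 control fragments (exact Poisson 95% interval 21.1 to 44.0) and 78 valine fragments (61.7 to 97.3) stood behind them.

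Particl is the mouse counterpart by name of human PARTICLE, an antisense RNA of the MAT2A promoter described as rising after irradiation. It stood at 10.5, 6.81, 10.2 and 6.83 FPKM in the control replicates and at 14.5, 16.4, 15.2 and 11.5 FPKM in the valine replicates. Control replicates 1 and 3 lay well above control replicates 2 and 4, and valine replicate 4 was only slightly above control replicate 1. The means were 8.60 ± 2.06 and 14.4 ± 2.07 FPKM (SD, n = 4), a 1.67-fold difference from 385 and 646 fragments.

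Snord42b was at 0 in all 4 control samples and at 8.73, 8.12, 5.71 and 3.93 FPKM in the valine replicates, a mean of 6.62 ± 2.22 FPKM (SD, n = 4). For a gene of 69 bases these levels stood for few fragments. They were 4, 4, 3 and 2 fragments, 13 in all (exact Poisson 95% interval 6.92 to 22.2), against none in the controls, which allows up to 3 fragments over the group. Relative to depth the valine group was thus at least 4.31-fold higher, taken from the 13 fragments against that floor and without the counting error of the 13. Snord42a and Snord4a, the other snoRNA genes of the same host, were at 0 in every sample of both groups.

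**Figure D1:**
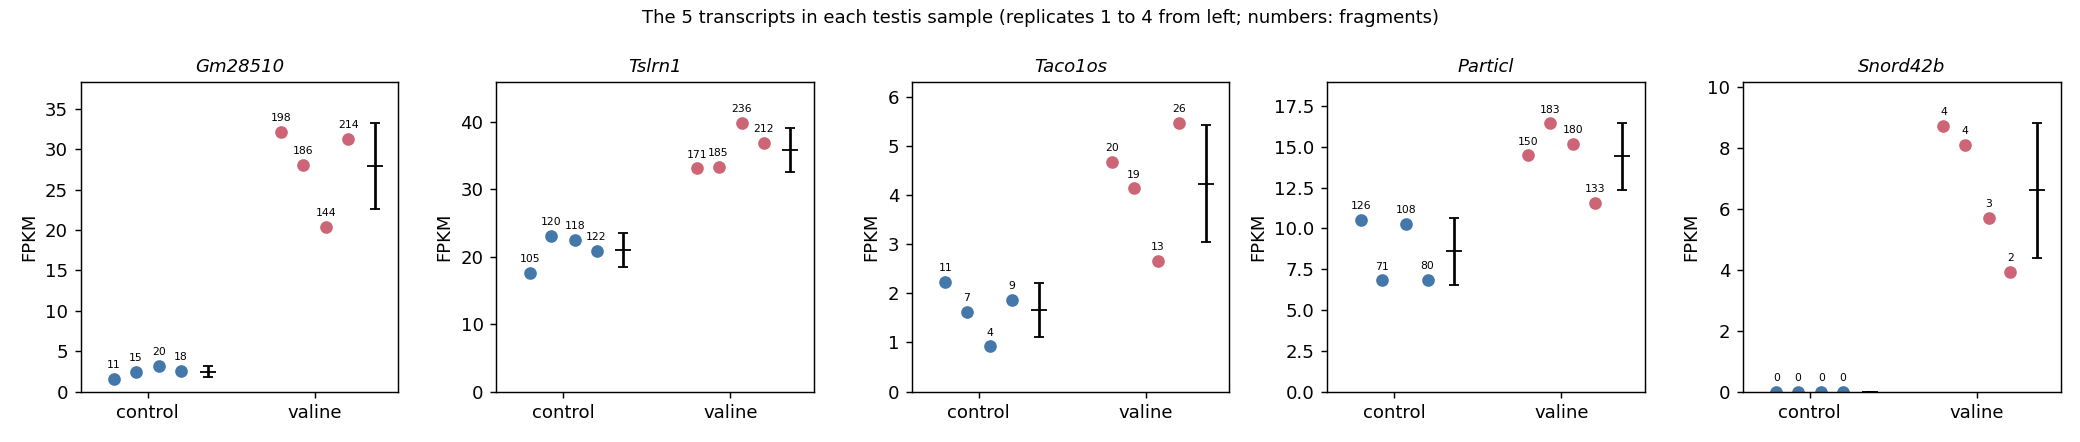
FPKM of each of the 5 transcripts (vertical axis, from 0, a separate scale for each panel) in the 4 control and 4 valine samples (points, replicates 1 to 4 from left), with the number of fragments above each point and the group mean ± SD as a black bar. No valine sample is as low as any control sample in any panel, and the panels differ in depth from 804 valine fragments for Tslrn1 to 13 for Snord42b.

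All 5 members passed the minimum mean of 1 FPKM, Snord42b through the valine samples alone. Groups without overlap, valine above control, were found for all 5 members, and for 8.99% of all tested genes (1984 of 22077). The members were listed for this difference, so nothing is read from the contrast of those shares. Zero in one whole group was not peculiar to one direction. There were 34 genes at 0 in every control sample and above 0 in every valine sample, Snord42b among them, and 32 of the reverse kind. Of 240 genes of up to 100 bases that passed the minimum mean, 1 was of each kind. The 1 at 0 in the controls was Snord42b itself, so this count is no separate background for it.

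The order of the members changed between the groups. In the controls Tslrn1 was followed by Particl, then by Gm28510 and Taco1os, whose ranges overlapped, and by Snord42b at 0. In the valine group Gm28510 moved above Particl to stand next to Tslrn1, which it did not reach in any sample. Snord42b and Taco1os came last there with overlapping ranges. Within the valine group the members did not vary together. Replicate 3 was the lowest for Gm28510 and Taco1os but the highest for Tslrn1, and replicate 4 was the lowest for Particl and Snord42b.

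The genes whose pattern over the 8 samples was most like that of a member were found by the root mean square difference of centred log2(FPKM + 1) values. For both Gm28510 and Snord42b these were the other of the pair (0.373) and Gm13794, a lincRNA at 0.521 ± 0.273 FPKM in the controls and 12.0 ± 4.58 FPKM in the valine samples (SD, n = 4). For Tslrn1 they were the lincRNA Gm26654 (0.104) and Gm9844 (0.106). For Taco1os they were Gm42824 (0.201) and Gm14616 (0.214), for Particl Astx4b (0.0741) and Gm35430 (0.101). Astx4b had the same split of the controls as Particl, with 11.8 and 12.5 FPKM in replicates 1 and 3 and 7.69 and 7.77 FPKM in replicates 2 and 4. The measure spans both groups and so includes the difference for which the members were selected. Gm28510 and Snord42b ranked 1 and 3 of 22077 genes by that difference, so their likeness to each other is no separate result.

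The coding partner of each opposite-strand member was lower with valine. Overlapping genes were taken by position alone, and flanking genes as the nearest on each side whose mean reached 1 FPKM. They were tested with limma across all 22077 genes with Benjamini-Hochberg adjustment, which called 4.32% of genes higher and 4.41% lower. Of 13 host, overlapping and nearest genes, 1 was higher and 2 were lower. Taco1, which activates translation of the mitochondrial cytochrome c oxidase subunit I, stood at 8.57, 7.36, 8.67 and 7.80 FPKM in the control replicates and at 6.09, 4.96, 5.80 and 5.58 FPKM in the valine replicates. The groups did not overlap, and the log2 change was -0.46 ± 0.09 (SE), with a limma adjusted p of 0.0183. The call was lost in 1 of 16 alternatives, without control replicate 1 (adjusted p = 0.0594).

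Mat2a, which makes S-adenosylmethionine, the methyl donor of the cell, was at 79.3, 77.1, 69.1 and 74.5 FPKM in the control replicates. In the valine replicates it was at 65.3, 62.9, 59.4 and 66.0 FPKM. All valine samples lay below all controls, with a log2 change of -0.24 ± 0.06 (SE) and a limma adjusted p of 0.0432. This call was lost in 11 of 16 alternatives, with adjusted p-values from 0.0104 to 0.112, among them the removal of the trend with gene length (0.110) and leaving out any 1 library other than control replicate 3.

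Reads of these pairs may not be separable. The annotation gives 245 shared exonic bases to Taco1os and Taco1, 38.0% of the exons of Taco1os, and 508 to Particl and Mat2a, 32.6% of those of Particl. The sources used here do not say whether the authors counted by strand, and without strand a fragment in a shared stretch cannot be told apart. The fragments of Taco1os went from 31 to 78 over the group and those of Taco1 from 321 to 223. For Particl and Mat2a they went from 385 to 646 and from 9644 to 8175.

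Other opposite-strand genes were counted in the same way, with no test of the difference from Taco1os. Among 126 further pairs of a gene with a symbol ending in os and its partner, the log2 changes had opposite signs in 72. In 4 pairs the os gene was called higher with limma, and in none of those 4 was the partner called lower. Over the 126 pairs the partner was called lower in 2 and higher in 10. A partner with several os genes was counted once per pair, as was Cdrt4 among those higher.

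Rpl23a, the host of Snord42b, did not pass the test. It stood at 171.2, 157.0, 169.9 and 184.6 FPKM in the control replicates and 200.5, 201.9, 177.2 and 216.1 FPKM in the valine replicates. The highest control sample lay above the lowest valine sample, and the log2 difference was 0.22 ± 0.07 (SE, limma adjusted p = 0.0991). Snord42b shares 22 of its bases with exons of Rpl23a on the same strand, 31.9% of its length. Fragments of exonic host RNA there, and of unspliced host RNA over all of Snord42b, cannot be told apart from the snoRNA.

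Among genes whose mean reached 1 FPKM, the nearest before Tslrn1 on the X chromosome was 4931400O07Rik. It runs on the opposite strand and was higher. It was at 9.06, 10.9, 12.8 and 12.3 FPKM in the control replicates and at 15.6, 19.3, 18.3 and 14.9 FPKM in the valine replicates, with no overlap. The log2 change was 0.56 ± 0.12 (SE) with a limma adjusted p of 0.0306. It was lost in 9 of 16 alternatives (0.0231 to 0.108), among them removal of the trend with gene length (0.108) and leaving out control replicate 1 or 2 or valine replicate 1, 2 or 3.

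The other 9 neighbours were not called. They were Gm20834 and Gm29525 beside Gm28510, Sms-ps beyond Tslrn1, Dcaf7 and Map3k3 around Taco1os, Ggcx and Sh2d6 around Particl, and Tlcd1 and Rab34 around Snord42b. Their limma adjusted p-values ran from 0.166 for Rab34 to 0.997 for Tlcd1. Sh2d6 had the widest spread, at 48.9, 32.5, 60.2 and 9.06 FPKM in the control replicates and 50.3 to 72.2 FPKM in the valine samples.

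**Figure D2:**
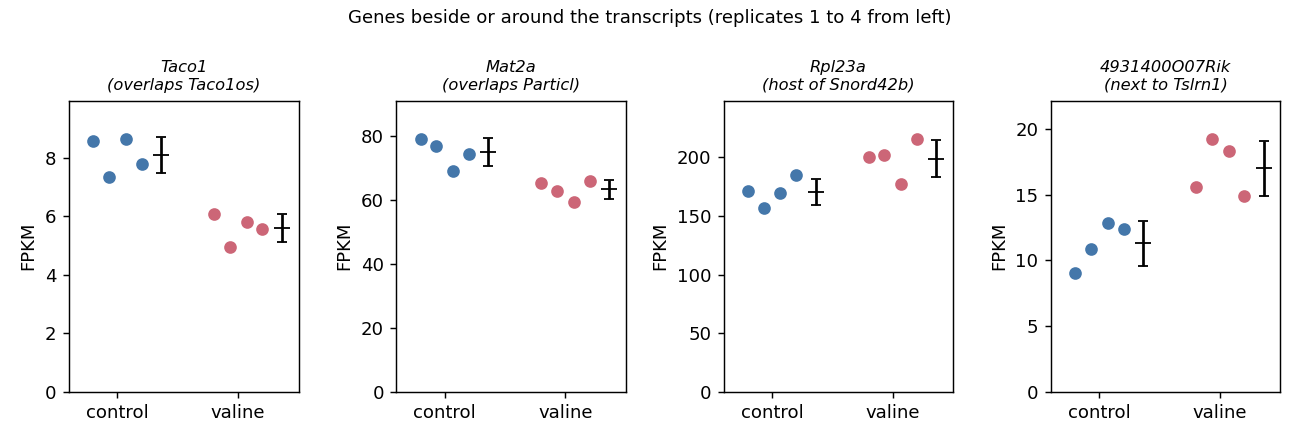
FPKM (vertical axis, from 0) of Taco1, Mat2a, Rpl23a and 4931400O07Rik in the 4 control and 4 valine samples (points, replicates 1 to 4 from left), with the group mean ± SD as a black bar. Taco1 and Mat2a lie lower in every valine sample and 4931400O07Rik higher, while the groups of Rpl23a overlap.

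The family of Gm28510 was also higher with valine, by much less. The summed level of the 85 other copies was 186.4, 180.3, 195.1 and 194.9 FPKM in the control replicates and 259.8, 268.2, 242.9 and 265.8 FPKM in the valine replicates. The groups did not overlap, and the means of 189.2 ± 7.18 and 259.2 ± 11.4 FPKM (SD, n = 4) differed 1.37-fold. The two-sided exact permutation p was 0.0286, the smallest that 4 against 4 samples can give. With samples rescaled to equal totals the ratio was 1.26. Fragments of Gm28510 placed on another copy, or the reverse, cannot be told apart from a change of that copy.

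Gm28510 made up 0.821% to 1.61% of the family sum in the controls and 7.74% to 11.0% in the valine samples. By mean level it was rank 28 in the controls and rank 1 in the valine group. Of the 68 other copies whose mean reached 1 FPKM, 63 (92.6%) had a positive log2 difference, with a median of 0.30. Over all tested genes 53.6% were positive, with a median of 0.02. In the length bin of these copies, 809 to 1882 bases, 70.7% were positive, with a median of 0.14. Over the Y chromosome, these copies included and Gm28510 left out, 79.2% were positive, with a median of 0.18. With limma 5 of these copies, 7.35%, were called higher, namely Gm20814, Gm20855, Gm21366, Gm21477 and Gm28102. None was called lower, and at an unadjusted p below 0.05 there were 20 higher (29.4%) and 0 lower, against 13.8% and 11.8% of all tested genes. The count of 5 depended on single libraries and on scaling, since it fell to 0 with the length trend removed and without any 1 of control replicates 1, 2 and 3 and valine replicates 1 and 2. Positive differences remained the majority under equal totals (61 of 68), quantile normalisation (64) and removal of the length trend (58). The median log2 differences of the copies were then 0.22, 0.33 and 0.15.

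Sly itself had 1.55 ± 0.110 FPKM in the controls and 2.30 ± 0.289 FPKM in the valine samples (SD, n = 4). It was not called (limma adjusted p = 0.0826). Over the Y chromosome with Gm28510 left out, limma called 12 of 486 tested genes higher, 2.47%, and 0 lower. Of all tested genes 4.32% were called higher and 4.41% lower. The 68 other tested Sly copies and their 5 calls are among these 486 genes, whose median log2 difference was 0.18. At an unadjusted p below 0.05 there were 66 higher (13.6%) and 3 lower (0.617%), against 13.8% and 11.8% of all tested genes. With the length trend removed this median was 0.03 and 0 of the 486 genes were called higher.

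**Figure D3:**
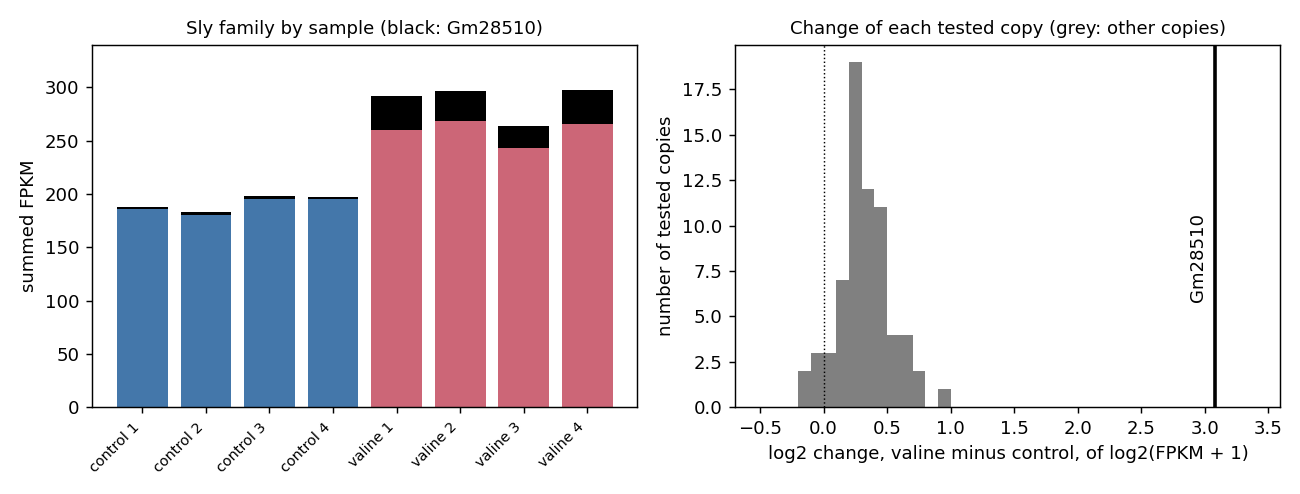
Left, summed FPKM of the Sly family in each sample (bars from 0), with Gm28510 in black on top of the other 85 copies. Right, the number of tested copies by log2 change of FPKM + 1, with the 68 other copies in grey and Gm28510 as a black line. The other copies lie between -0.15 and 0.91 and Gm28510 at 3.08.

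The share of genes called was counted for each annotated class of the members, with no test of the difference between classes. With the members left out, limma called 3.47% of 3631 long noncoding genes higher (126) and 0.854% lower (31), against 4.32% and 4.41% of all tested genes. With samples rescaled to equal totals these counts were 54 higher and 70 lower. The order of the shares called higher depended on the setting, since under quantile normalisation 2.34% of long noncoding and 1.80% of all tested genes were higher. At an unadjusted p below 0.05 the shares were 15.5% and 13.8%. Among protein coding genes, the class of Gm28510, 4.85% were higher and 6.18% lower. Among lincRNA genes, the class of Tslrn1, 3.76% were higher, and among antisense genes, the class of Taco1os, 2.85%. Of TEC models, the class of Particl, 7 of 428 (1.64%) were higher and 10 lower. Of 110 other snoRNA genes 0 were called higher and 1 lower, with 3 and 7 at an unadjusted p below 0.05.

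Gene length moved with the direction of change. Calls were split over 5 equal bins of exon length. In the shortest, of 12 to 808 bases, which holds Tslrn1, Taco1os and Snord42b, 4.96% were higher and 0.877% lower. In the next, of 809 to 1882 bases, which holds Gm28510 and Particl, 8.49% were higher and 1.98% lower. In the longest bin 1.18% were higher and 8.84% lower. The part of length in the members' differences was not tested beyond removal of this trend, after which their log2 differences were 2.93 for Gm28510, 0.59 for Tslrn1, 0.81 for Taco1os, 0.59 for Particl and 2.89 for Snord42b. Long noncoding genes then had 32 higher and 46 lower.

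**Figure D4:**
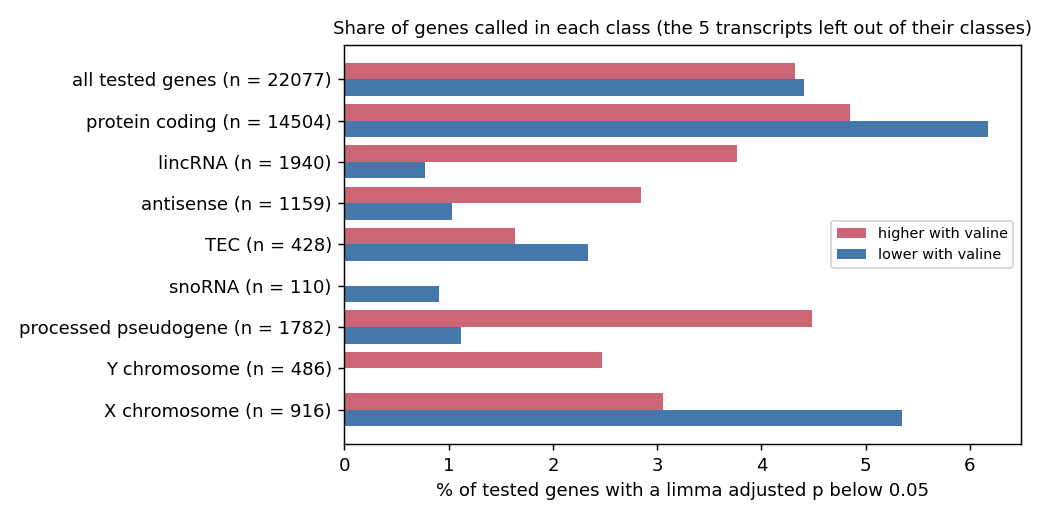
Percent of tested genes (horizontal axis, from 0) called higher (red) or lower (blue) with valine by limma at an adjusted p of 0.05, by annotated class or chromosome, with the number tested in brackets and the 5 transcripts left out of their classes. The lincRNA, antisense and processed pseudogene classes were called higher more often than lower, while protein coding genes and TEC models had more called lower. With the length trend removed the order turned for the lincRNA, antisense and processed pseudogene classes. With equal totals it turned for antisense genes and processed pseudogenes, while lincRNA genes had 37 higher and 35 lower.

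The pathway lists tied to the members were counted, beside 4.32% of all tested genes higher and 4.41% lower. Of 15 proteins that build or modify snoRNA particles, 1 was called higher with limma and 0 lower (5 and 1 at an unadjusted p below 0.05), with a median log2 difference of 0.14. The one was Znhit6, an assembly factor of box C/D particles, at 22.2 ± 0.681 and 26.1 ± 0.992 FPKM (SD, n = 4, adjusted p = 0.0393). Fbl, which encodes fibrillarin, was at 17.6 ± 1.34 and 21.4 ± 1.63 FPKM (SD, n = 4) and was not called (limma adjusted p = 0.0711), nor was Nop10 (0.0596). Under equal totals, quantile normalisation and removal of the length trend, 0 of the 15 were called.

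Of 10 genes of S-adenosylmethionine metabolism and of the chromatin partners reported for human PARTICLE, 9 were tested. Mat2a was the 1 called lower and 0 were called higher (3 and 0 at an unadjusted p below 0.05), with a median log2 difference of -0.09. With equal totals 4 were lower, and with the length trend removed 0 were. Mat2b, the regulatory partner of Mat2a, had a limma adjusted p of 0.159, and Ehmt1, a histone methyltransferase, 0.167.

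Of 20 genes of cytochrome c oxidase, 19 were tested, with 3 called higher, 1 lower and a median log2 difference of 0.15. At an unadjusted p below 0.05 there were 11 higher and 1 lower. The one lower was Taco1, and 1 was higher and 1 lower under quantile normalisation and with the length trend removed. Those higher were Cox8c, from 900.3 ± 28.0 to 1145 ± 27.6 FPKM (SD, n = 4, limma adjusted p = 0.00358), Cox6b2 (adjusted p = 0.0176) and Cox4i1 (0.0188), the last named after its value was seen. Cox8c and Cox6b2 encode testis forms of their subunits. The mitochondrial gene mt-Co1, whose translation Taco1 activates, was at 7984 ± 425 and 8750 ± 239 FPKM (SD, n = 4) and was not called (0.121).

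Markers of cell types moved between the groups as well. In bulk tissue fewer cells of a type and less RNA per cell cannot be told apart. All 7 Leydig cell markers were lower with limma, their sums being 1580 to 2243 FPKM in the controls and 461 to 751 FPKM with valine. Of 9 markers of elongating spermatids 8 were higher, with sums of 44710 to 47020 and 57010 to 69320 FPKM, although 2 were called under quantile normalisation and 3 with the length trend removed. Of 7 round spermatid markers, 0 were higher and 1 lower (0 and 1 at an unadjusted p below 0.05). Of 5 macrophage markers 3 were lower, with sums of 61.0 to 77.6 and 26.4 to 32.1 FPKM. Of 8 spermatocyte markers Ccna1 was higher (limma adjusted p = 0.0430) and Stag3 lower (0.00592), and the sums were 1268 to 1360 and 1288 to 1333 FPKM. Of 7 spermatogonial markers Kit and Zbtb16 were lower, by log2 changes of -0.95 and -0.89, although the sums were 106.0 to 125.3 and 115.0 to 132.6 FPKM. Of 7 Sertoli cell markers Rhox8 was higher, with sums of 547.6 to 636.7 and 550.3 to 598.1 FPKM. Of 5 adipocyte markers Plin1 was lower, with sums of 30.5 to 85.8 and 31.2 to 40.6 FPKM. Of 5 red blood cell markers 0 were called by limma, also at an unadjusted p below 0.05, and the 5 epididymal markers were under the minimum mean, with sums of 1.18 to 5.97 and 0.228 to 1.62 FPKM. None of these types is known from the data to hold the 5 transcripts, and the part of cell makeup in their differences was not tested.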

How the data were processed

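RNA of 4 control and 4 valine mouse testis samples was prepared with the Illumina TruSeq RNA kit, as the labels' protocols state. Reads were aligned with HISAT2 to GRCm39, per the submitters' processing notes. The authors deposited FPKM values per gene. The sources used here do not give the quantifier, its annotation or its strand setting. Symbols (52081 of 55414 identifiers), gene types, exon lengths, neighbour order and transcripts came from GENCODE M21, an older build, and promoter windows from RefSeq GRCm38.p6, so printed coordinates are of GRCm38.p6.

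Values were analysed as log2(FPKM + 1), so fold changes of low genes are understated on that scale. Genes whose mean reached 1 FPKM were tested with limma 3.58.1 in R 4.3.3 (treatment only, trended moderation, two-sided, Benjamini-Hochberg at 0.05), a fit tested on simulated data. Folds between means are of FPKM itself. Fragments were recovered from FPKM times exon length, which assumes that the authors' lengths equal those of GENCODE. Copies of Sly were found with blastn 2.17.0. The single-value test was scipy 1.17.1's exact permutation test.

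The members and lists were chosen with earlier results of these data known. Named genes were the members, their host and overlapping genes, and the nearest gene on each side whose mean reached 1 FPKM. Others were up to 3 per pathway list by smallest p, the 2 genes most like each member, and the snoRNA genes of Rpl23a. Genes of the Sly family and its relatives were named after values were seen. In all, 16 alternatives were run, and 4 kinds more for the Sly sum were chosen after seeing the data.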

Additional observations from a re-analysis of the deposited data

Results flagged for a closer look

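In 52 groups of 4 samples, those of the members and the genes named beside them, 2 had a sample far from the other 3, where chance alone flags about 1 group in 20. Map3k3, beside Taco1os, was at 10.034 FPKM in valine replicate 4 against 12.948 to 13.508 FPKM in the other valine samples. Tlcd1, beside Snord42b, was at 18.769 FPKM in control replicate 3 against 16.679 to 16.724 FPKM in the other controls. Neither gene was called in the comparison of valine with control.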

How the results depend on the processing

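The members were chosen for groups that differ, so the direction of their differences could not have turned under most alternatives and is no sign of stability. Their log2 differences were 2.93 to 3.49 for Gm28510, 0.59 to 0.79 for Tslrn1, 0.81 to 1.32 for Taco1os, 0.59 to 0.79 for Particl and 2.75 to 6.0 for Snord42b. The highest values for Gm28510, Taco1os and Snord42b came with a pseudocount of 0.1. The 3 neighbours with a call lost it in 21 of 48 repeats of their tests. The 954 genes called higher became 568 with no expression filter, 363 with equal totals, 398 with quantile normalisation, 475 with the length trend removed and 503 without the mean-variance trend. The 974 called lower became 2028 with equal totals, which moved the median log2 difference of all genes from 0.02 to -0.08. The long noncoding genes called higher, 126, became 71 with no expression filter, 54 with equal totals and 32 with the length trend removed, and the 31 called lower became 70 with equal totals. Leaving out 1 sample gave 381 to 795 genes higher and 461 to 802 lower, and 48 to 132 long noncoding genes higher and 11 to 27 lower. It gave ratios of 1.349 to 1.399 for the Sly sum, at an exact permutation p of 0.0571, the smallest that 3 against 4 samples can give. With the replicate number as a block there were 581 higher and 489 lower, 72 and 16 among long noncoding genes, and Mat2a (adjusted p = 0.0549) and 4931400O07Rik (0.0549) were no longer called. The numbers were not shown to pair the samples, since the deviations of same-numbered samples correlated at -0.017, -0.040, 0.10 and 0.11, and only replicate 4 correlated best with its own number. The cause of these changes was not tested. Depth limits Snord42b and Taco1os most, with 13 and 78 fragments over the valine group.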

Other observations

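Some copies of the Sly family stood out in 1 sample. Gm21865 was at 17.0 FPKM in valine replicate 1 and at 1.60 to 2.56 FPKM in the other 7 samples. Gm20824 was at 8.29 FPKM in valine replicate 3, and Gm21294 at 30.9 FPKM in valine replicate 2. The X-linked relatives also varied between samples within each group. Slxl1 was at 24.3, 27.7, 9.73 and 36.9 FPKM in the control replicates and at 29.5, 9.78, 32.6 and 12.6 FPKM in the valine replicates. Slx was at 0 in control replicates 1 and 3 and valine replicates 1, 3 and 4, and at 0.971, 1.01 and 1.21 FPKM in the others. Of the other Y-linked spermatid genes, Ssty1 was at 1.68 ± 0.438 and 1.83 ± 0.630 FPKM and Ssty2 at 1.08 ± 0.266 and 0.907 ± 0.208 FPKM (control and valine, SD, n = 4).

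Besides Snord42b, 1 gene whose mean reached 1 FPKM was at 0 in all control samples and above 0 in all valine samples. It is listed by the identifier ENSMUSG00002076504 and was at 4.34, 1.35, 3.79 and 5.21 FPKM in the valine replicates.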
